A study of Homo sapiens with 4 samples.

Results

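PGR (ENSG00000082175) and GREB1 (ENSG00000196208) were followed across single cells and time after estrogen in a pair of established human cancer lines. They were taken by their symbols from the feature lists of both lines, where they are 2 of 33540 features in Ishikawa and 2 of 33538 in T-47D. Ishikawa is a line from an endometrial adenocarcinoma and T-47D a line from a breast carcinoma. For each line, 1 culture received vehicle (DMSO, called 0 h here) and 3 cultures received 10 nM 17β-estradiol (E2), the main natural estrogen, for 2, 4 or 8 h. All cultures, the vehicle culture included, had been kept in hormone-depleted medium before treatment, and 38.7% of the kept Ishikawa cells took at least 1% of their UMIs from the reporter GFP, a transgene that is a feature of the Ishikawa matrix alone. The cells of the 4 time points were marked with MULTI-seq, a DNA tag anchored in the membrane, and all 4 were loaded together, so that a single droplet library holds every time point of a line. With 1 culture per line and time there were no replicates, so no test was run, and all 95% intervals below cover counting error only.

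PGR encodes the nuclear progesterone receptor, a steroid receptor that is made as a long and a short isoform from separate start sites of the same gene. GREB1 encodes a large protein that binds estrogen receptor α, the product of ESR1, on chromatin. E2 bound to this receptor raises transcription of both genes in breast and endometrial cells, and the presence of progesterone receptor is read in breast tumours as a sign that estrogen receptor signalling works.

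In RefSeq on GRCh38.p14, PGR lies on the minus strand at chr11:101029624-101129813 and GREB1 at chr2:11482888-11642788. The antisense gene PGR-AS1 overlaps the first 737 bases of PGR and was not analysed here. Whether the counting used strand is not stated in the sources used here, so reads of the pair in that overlap cannot be told apart. The counted reads come from the 3′ ends of transcripts, and the long and short isoforms were not separated.

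The sequences around the starts of PGR are shown because PGR rose after E2, and because the estrogen receptor is known to reach genes through its own element or through GC boxes bound by SP1. RefSeq gave 3 start windows for PGR, and the windows of 250 bases before and 50 bases after a start were searched on both strands for GGTCA, which is 1 arm of the estrogen response element, for the whole element GGTCANNNTGACC, and for the GC box GGGCGG. Capitals mark TGACC (the reverse complement of GGTCA) and the GC box in either orientation, and both stretches are 5′ to 3′ on the minus strand of GRCh38.p14.
PGR, 250 bases before the first start, chr11:101129814-101130063: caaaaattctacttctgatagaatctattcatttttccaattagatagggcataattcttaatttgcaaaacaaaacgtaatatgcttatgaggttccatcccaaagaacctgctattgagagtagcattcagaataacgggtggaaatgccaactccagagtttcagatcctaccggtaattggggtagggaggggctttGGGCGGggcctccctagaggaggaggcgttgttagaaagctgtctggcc
PGR, 30 bases before a start 750 bases further into the gene, chr11:101129217-101129246: agcTGACCagcgCCGCCCtcccCCGCCCcc
The stretch before the first start held 1 GC box, 49 bases before that start, and no GGTCA. The shorter stretch begins its TGACC 180 bases before the inner start, and GC boxes begin 171 and 161 bases before it. The whole element was found in none of the 3 windows. Among all 35116 RefSeq start windows, 37.4% held GGTCA, 45.0% held the GC box and 0.0570% held the whole element, so these matches are a description and not a mark of PGR. The start window of GREB1 is not shown.

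After filtering on the study's limits there remained 776, 1480, 892 and 1465 Ishikawa cells and 1525, 1207, 1341 and 553 T-47D cells for the 0, 2, 4 and 8 h cultures. A UMI (unique molecular identifier) marks 1 captured transcript, and the summed UMIs of a pool ranged from 12927799 to 33175309, with medians of 19122 to 22576 UMIs per cell. Median mitochondrial shares were 3.96% to 4.27% in Ishikawa and 10.0% to 10.4% in T-47D. Of the cell barcodes, 80 occurred in both libraries, 22 of them among the kept Ishikawa cells and 16 among the kept T-47D cells. The luminal and endometrial markers mostly separated the lines as their names would have it. All 5 epithelial markers were measured in both, GATA3 (luminal breast) stood at 518 CPM (the summed UMIs of a gene scaled to a common pool total) in T-47D at 0 h and at 1 UMI in Ishikawa, and PAX8 and EMX2 (endometrium) stood at 126 and 108 CPM in Ishikawa and at 0 in T-47D. PAX2, also fixed as an endometrial marker, was at 0 in Ishikawa. Of the 5 luminal markers, 1 was under 1 CPM in T-47D, and FOXA1, another of them, stood at 5.75 CPM in Ishikawa at 0 h. The 5 immune markers summed to at most 2.53 CPM, the 5 endothelial markers to at most 1.57 CPM and the 5 fibroblast markers to between 13.1 and 29.0 CPM over all pools.

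In T-47D, the progesterone receptor transcript was already abundant before E2 and its level was about 2 times as high within 2 h. The level of PGR, in CPM of the pool's summed UMIs, was 129.5 at 0 h (126 to 133, 4297 UMIs), 261 at 2 h (255 to 267), 281 at 4 h (275 to 287) and 355 at 8 h (345 to 365, 4590 UMIs). The intervals of neighbouring times did not overlap at any step. Against 0 h, the ratio of levels was 2.01 at 2 h (1.94 to 2.09), 2.17 at 4 h (2.09 to 2.25) and 2.74 at 8 h (2.63 to 2.86). The rise was steepest at first, as PGR gained 65.6 CPM per hour up to 2 h, 10.1 between 2 and 4 h and 18.5 between 4 and 8 h.

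GREB1 rose by a larger fold in T-47D, from a low start. Its level was 10.4 CPM at 0 h (9.33 to 11.6, 345 UMIs), 31.7 at 2 h (29.6 to 34.0), 37.8 at 4 h (35.7 to 40.1) and 47.3 at 8 h (43.6 to 51.2, 611 UMIs). Here, too, no neighbouring intervals overlapped. The ratio of levels against 0 h was 3.05 at 2 h (2.69 to 3.47), 3.64 at 4 h (3.22 to 4.12) and 4.54 at 8 h (3.98 to 5.20). GREB1 gained 10.7 CPM per hour up to 2 h, 3.05 between 2 and 4 h and 2.35 between 4 and 8 h.

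The fold of GREB1 exceeded that of PGR in T-47D by 1.52 times at 2 h (1.33 to 1.73), 1.68 at 4 h (1.48 to 1.90) and 1.66 at 8 h (1.44 to 1.90). As a share of the whole change from 0 to 8 h, the early gains were alike in size. By 2 h, 58.2% of the change of PGR and 57.9% of that of GREB1 had taken place, and by 4 h 67.2% and 74.4%. With a pseudocount of 1 CPM, the log2 fold change against 0 h was 1.00, 1.11 and 1.45 for PGR and 1.52, 1.77 and 2.08 for GREB1 at the 3 later times. Both passed 1.5-fold at each time, while among the 7440 T-47D genes with a mean of at least 10 CPM, 1.22% were that much higher at 2 h, 1.33% at 4 h and 2.34% at 8 h, and 0.417%, 0.363% and 0.726% that much lower. By the size of the rise GREB1 ranked 12th, 9th and 6th of these genes at 2, 4 and 8 h, and PGR 39th, 29th and 25th. The pair was chosen with such results known, and the 3 comparisons share the 0 h pool, so these ranks are a description.

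**Figure D1:**
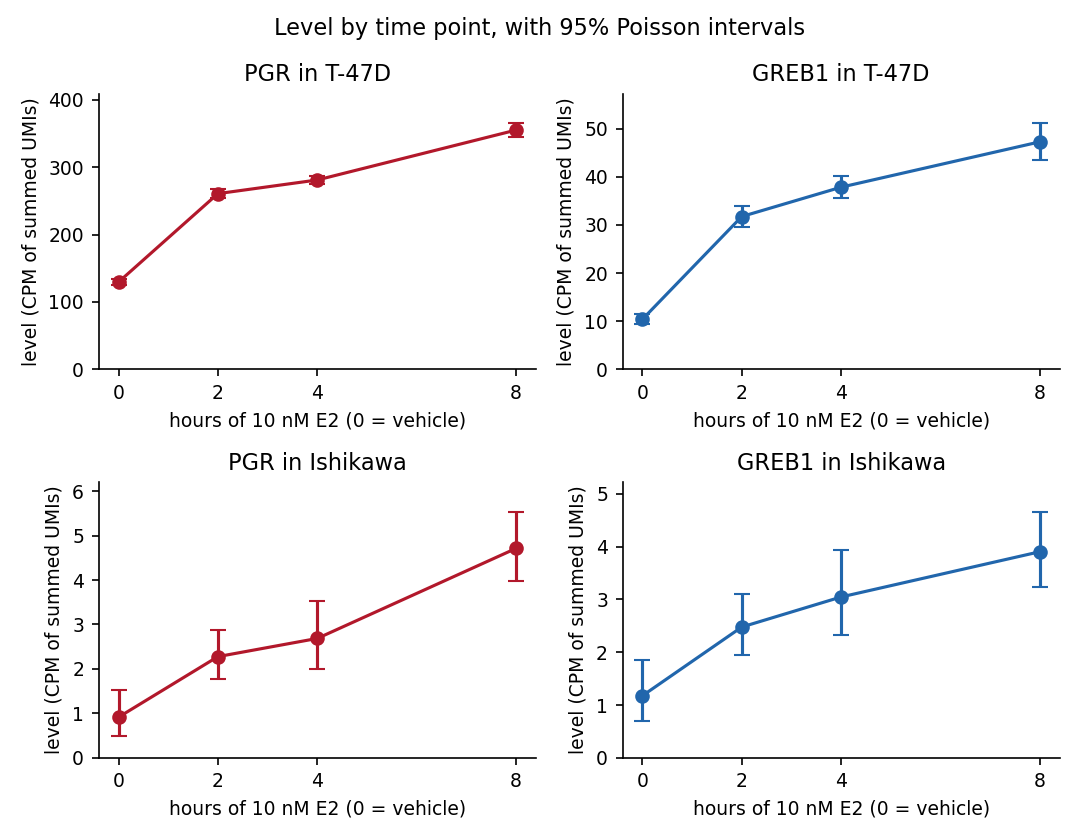
Level of PGR and GREB1 (CPM of summed UMIs) against hours of E2, for Ishikawa and T-47D. Each point is 1 pool and each error bar the exact 95% Poisson interval. Both genes climb at every step, with overlapping intervals at 2 and 4 h in Ishikawa. The T-47D levels of PGR are 75.4 to 142 times those of Ishikawa.

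In Ishikawa both transcripts were near the lower end of detection. PGR had 14, 68, 52 and 146 UMIs at 0, 2, 4 and 8 h, a level of 0.915 CPM (0.50 to 1.53), 2.28 (1.77 to 2.89), 2.69 (2.01 to 3.52) and 4.71 (3.98 to 5.54). GREB1 had 18, 74, 59 and 121 UMIs, a level of 1.18 CPM (0.697 to 1.86), 2.48 (1.95 to 3.11), 3.05 (2.32 to 3.93) and 3.90 (3.24 to 4.66). For both genes 0 h lay below 2 h with no overlap of the intervals, and 2 and 4 h overlapped. The intervals of 4 and 8 h overlapped for GREB1 and not for PGR.

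The counts still set a size for the rise in Ishikawa, with wide bounds. The ratio of PGR levels against 0 h was 2.49 at 2 h (1.39 to 4.79), 2.94 at 4 h (1.60 to 5.74) and 5.15 at 8 h (2.97 to 9.65). For GREB1 it was 2.11 (1.25 to 3.75), 2.59 (1.51 to 4.67) and 3.32 (2.01 to 5.79). At 8 h the fold of GREB1 was 0.645 times that of PGR (0.308 to 1.35), an interval that holds 1. Only 35.9% of PGR's change to 8 h had taken place by 2 h in Ishikawa, and 47.7% of GREB1's. With the pseudocount the log2 fold of PGR was 0.78, 0.94 and 1.58, and 0.72 at 8 h with a pseudocount of 5 CPM. Neither gene reached the mean of 10 CPM that the fold rule asks for.

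Between the lines, PGR was 142 times higher in T-47D at 0 h (84.3 to 259), 115 times at 2 h (90.2 to 148), 105 times at 4 h (79.7 to 140.2) and 75.4 times at 8 h (63.9 to 89.5). GREB1 was 8.84 times higher at 0 h (5.51 to 15.1) and 12.1 times higher at 8 h (9.95 to 14.8). The order of the 8 pools was the same for both genes, with T-47D at 8, 4, 2 and 0 h followed by Ishikawa at 8, 4, 2 and 0 h. The fold of PGR at 8 h was 1.88 times larger in Ishikawa than in T-47D (1.08 to 3.26). For GREB1 this ratio of folds was 0.730 (0.438 to 1.22), which does not separate the lines. Line and library cannot be told apart in these comparisons.

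Since the time points were mixed before the droplets were made, RNA set free from any cell could reach droplets of all 4. Barcodes with under 2000 UMIs and no time call were looked at beside the cells, and whether they hold such RNA or poor cells was not tested. Their median mitochondrial share was 1.54% in T-47D and 1.02% in Ishikawa, below the medians of the kept cells. In T-47D, 2784 such barcodes held PGR at 215 CPM (199 to 233) and GREB1 at 29.7 CPM (23.9 to 36.5), between the levels of the 0 and 2 h cells. In Ishikawa, 416 such barcodes held 1 UMI of PGR, or 2.51 CPM (0.0635 to 14), and 3 UMIs of GREB1, or 7.53 CPM (1.55 to 22.0). The Ishikawa levels of both genes lay within or below these intervals, which rest on 1 and 3 UMIs and are too wide to set a background. The 4 Ishikawa times came from the same library, and the levels at 8 h lay above the 0 h intervals for both genes. How much such RNA each cell held was not tested, and neither library holds a cell type known to lack the genes.

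The share of T-47D cells with a UMI rose for both genes, and so did the UMIs per positive cell. For shares, each T-47D cell was thinned to 14495 UMIs and each Ishikawa cell to 12539 UMIs, which left out shallower cells and kept 1331, 1082, 1231 and 519 T-47D cells at 0, 2, 4 and 8 h. The share of T-47D cells with a PGR UMI was 74.5% at 0 h (72.0 to 76.8), 87.6% at 2 h (85.5 to 89.5), 90.3% at 4 h (88.5 to 91.9) and 93.1% at 8 h (90.5 to 95.1). Without thinning it was 81.7%, 91.5%, 94.1% and 95.7%. In cells that had any, the mean number of PGR UMIs was 2.45, 4.43, 4.53 and 5.49 after thinning.

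The share of T-47D cells with a GREB1 UMI was 13.4% at 0 h (11.6 to 15.3), 32.5% at 2 h (29.7 to 35.4), 37.6% at 4 h (34.9 to 40.4) and 45.7% at 8 h (41.3 to 50.1). Without thinning it was 18.9%, 43.4%, 48.2% and 56.1%. GREB1 UMIs per positive cell went from 1.10 to 1.41, 1.47 and 1.5. The log2 fold of the mean UMIs per cell is the sum of the log2 folds of share and of UMIs per positive cell. At 8 h these parts were 0.32 and 1.16 for PGR and 1.77 and 0.46 for GREB1. By this arithmetic UMIs per positive cell made up 78.4%, 76.1% and 78.3% of the rise of PGR at 2, 4 and 8 h, and the share of cells made up 77.9%, 77.7% and 79.6% of that of GREB1. PGR started with a higher share of positive cells than GREB1, which left its share less room to rise. How far this sets the split was not tested. Poisson counts with the observed means, the same in all cells, would put the share with a GREB1 UMI at 13.6%, 36.8%, 42.5% and 49.6% at 0, 2, 4 and 8 h, at or above the observed shares, and that with a PGR UMI at 83.9%, 97.9%, 98.3% and 99.4%. The shares are of cells with a UMI, with no correction for RNA set free from other cells. They do not count cells that newly express a gene.

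**Figure D2:**
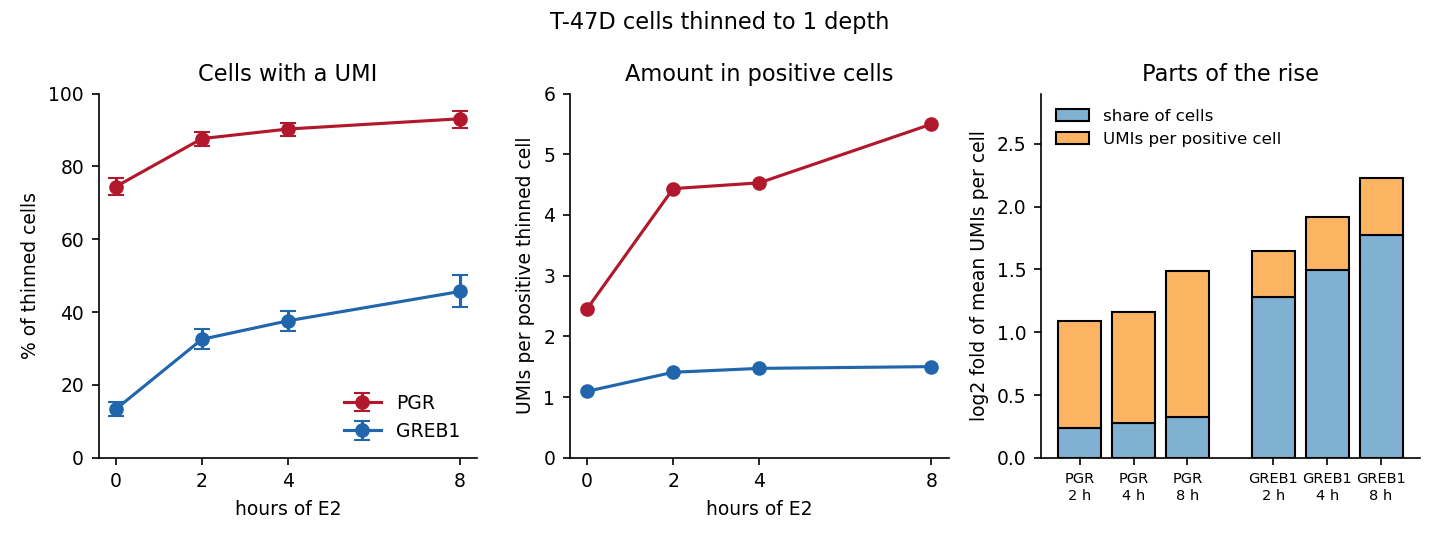
Log2 fold of the mean UMIs per thinned T-47D cell against 0 h, divided into the part from the share of cells with a UMI and the part from UMIs per positive cell, for PGR and GREB1 at 2, 4 and 8 h. The part from UMIs per positive cell fills 76.1% to 78.4% of the PGR bars, and the part from the share of cells fills 77.7% to 79.6% of the GREB1 bars.

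In Ishikawa the thinned share of cells with a PGR UMI was 1.18%, 2.53%, 2.75% and 4.34% at 0, 2, 4 and 8 h, and that with a GREB1 UMI 1.63%, 2.61%, 3.71% and 4.04%. A second random thinning gave 0.740% for GREB1 at 0 h. Without thinning the shares were 1.80%, 4.05%, 5.16% and 7.85% for PGR and 2.06%, 4.86%, 5.94% and 7.44% for GREB1. Before thinning, all 14 PGR-positive cells held a single UMI at 0 h, and 93 of 115 did at 8 h. Single Ishikawa cells reached at most 6 PGR UMIs. At such counts, in the first thinning, the share carried 89.7% to 91.0% of the rise of PGR and 94.2% to 96.3% of that of GREB1.

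The count per cell spread widely for PGR in T-47D. After thinning, 340, 134, 120 and 36 cells had no PGR UMI at 0, 2, 4 and 8 h, where a Poisson distribution of the same mean would leave 214, 22.2, 20.7 and 3.12. The variance over the mean was 2.02, 2.86, 2.72 and 2.70, and 1 for Poisson counts. Cells with at least 5 PGR UMIs made up 8.57%, 35.4%, 36.4% and 50.9% of cells, and those with at least 10 made up 0.526%, 6.56%, 6.42% and 11.8%. The 10% of cells with most PGR held 33.3% of all PGR UMIs at 0 h and 25.4% at 8 h. The distribution moved up with time. A cell with 0 UMIs may still express PGR, and without thinning 95.7% had a PGR UMI at 8 h.

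GREB1 counts were nearer to Poisson. Cells without GREB1 numbered 1153, 730, 768 and 282, against 1150, 684, 707 and 261 for a Poisson distribution. The variance over the mean was 1.04 before E2, then 1.28, 1.37 and 1.22. Cells with at least 2 GREB1 UMIs went from 1.20% to 10.4%, 12.3% and 16.4%. In both genes the coefficient of variation (CV, the SD over the mean) fell as the mean rose, from 1.05 to 0.726 for PGR and from 2.66 to 1.33 for GREB1.

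**Figure D3:**
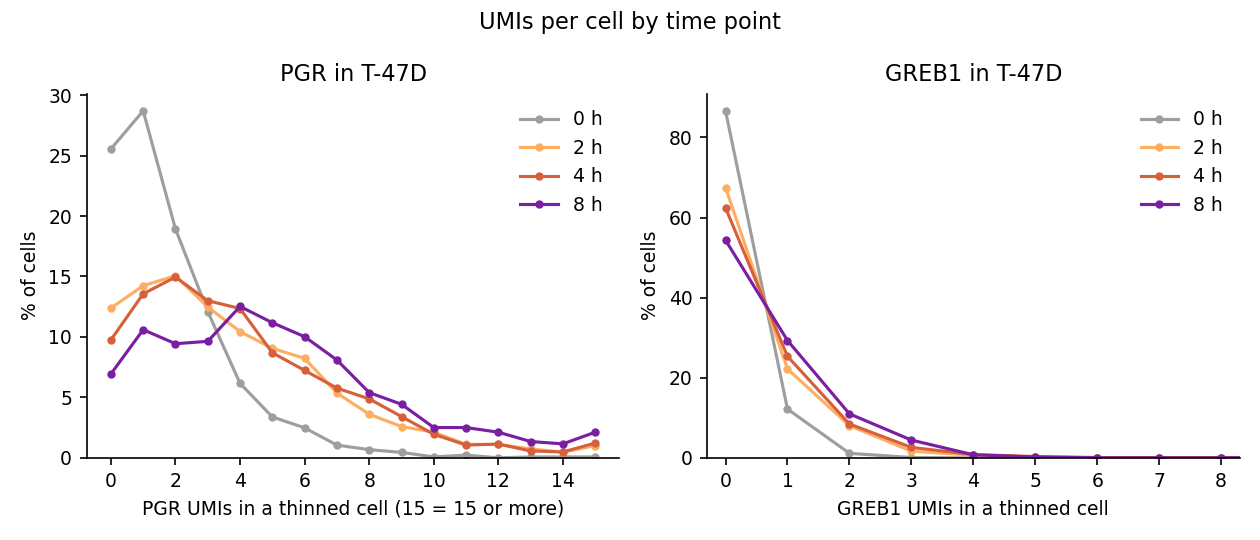
Percent of thinned T-47D cells by UMIs of PGR and of GREB1 per cell at each of the 4 times. The percent at 0 UMIs shrinks with time for both genes. PGR spreads to the right, with 50.9% of cells at 5 or more UMIs at 8 h.

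Set beside genes of like mean level, PGR varied more between T-47D cells at every time. The noise residual is what is left of log2(CV + 1) once its smooth trend with the mean is taken out. Genes were ranked by this residual within 10 equal bins by mean, of 744 genes each. The residual of PGR was above that of 95.6%, 93.4%, 91.5% and 89.4% of its bin at 0, 2, 4 and 8 h. That of GREB1 was above 39.5% at 0 h and above 92.3%, 95.2% and 83.9% at the later times. The residual itself was 0.16, 0.18, 0.15 and 0.12 for PGR and -0.04, 0.06, 0.08 and 0.02 for GREB1. GREB1 lay in the lowest bin at 0 h and in higher bins after E2, so it was ranked among other genes at 0 h than later.

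After E2, T-47D cells with more PGR also had more GREB1. Spearman's rho of the thinned UMIs was 0.034 at 0 h (1331 cells), 0.232 at 2 h (1082 cells), 0.196 at 4 h (1231 cells) and 0.240 at 8 h (519 cells), all cells of a time being 1 culture in 1 library at equal depth. A second random thinning gave 0.094, 0.217, 0.198 and 0.197, so the value at 0 h moved with the draw. Unthinned, where deeper cells have more of every transcript, rho was 0.138, 0.291, 0.310 and 0.379. Over 10 settings of depth, scaling and cell choice, rho ran from 0.011 to 0.138 at 0 h and from 0.217 to 0.291, 0.137 to 0.310 and 0.163 to 0.379 at 2, 4 and 8 h. These are weak correlations in sparse counts. GREB1 was sparsest at 0 h, and how far this lowered rho there was not tested.

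Beside all other genes the pair stood near the top after E2 in the first thinning, the only one ranked. Of 7438 genes with a mean of at least 10 CPM, PGR had the highest rho with GREB1 at 2 h, the second highest at 4 h and the highest at 8 h, and it ranked 901st at 0 h. The median rho of GREB1 with all genes was 0.00071, 0.0039, 0.0048 and -0.0018 at 0, 2, 4 and 8 h, and the 95th percentile was 0.047, 0.073, 0.072 and 0.092. In the other direction GREB1 ranked 27th, 39th and 38th by rho with PGR at 2, 4 and 8 h, and 2094th at 0 h. Genes with more UMIs per cell can reach a higher rho.

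**Figure D4:**
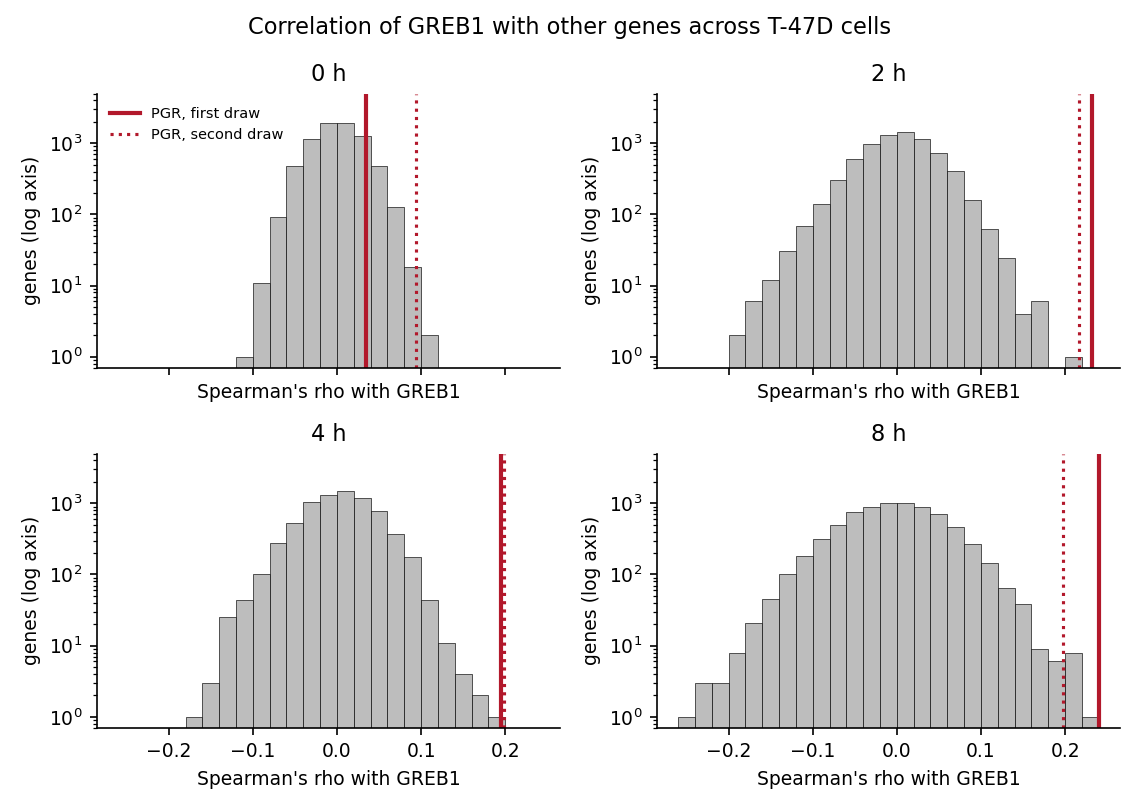
Number of genes by Spearman's rho with GREB1 across thinned T-47D cells at 0, 2, 4 and 8 h, with a line at the rho of PGR. The line sits within the bulk at 0 h (0.034) and at the right edge of all genes at 2, 4 and 8 h (0.232, 0.196 and 0.240).

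The same relation was seen when cells were sorted by their PGR. At 8 h the mean of GREB1 UMIs was 0.194 in the 36 cells with no PGR UMI, 0.519 in those with 1 to 2, 0.590 with 3 to 5, 0.905 with 6 to 10 and 1.04 with 11 or more. At 2 h these means were 0.179, 0.375, 0.457, 0.654 and 0.833, and at 4 h 0.350, 0.373, 0.578, 0.748 and 0.964. At 0 h they were 0.138 with no PGR UMI, 0.131 with 1 to 2, 0.174 with 3 to 5 and 0.175 with 6 to 10. In UMIs the classes thus lay further apart at the E2 times than in vehicle. In the second thinning the 0 h means were 0.120 with no PGR UMI and 0.269 with 6 to 10. The last 2 classes at 4 h stood there at 0.822 and 0.727. Mean GREB1 over all thinned cells was 0.147 at 0 h and 0.458, 0.554 and 0.686 later, so the same relative difference makes a smaller gap at 0 h. Whether the relation itself differed between vehicle and E2 was not tested.

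**Figure D5:**
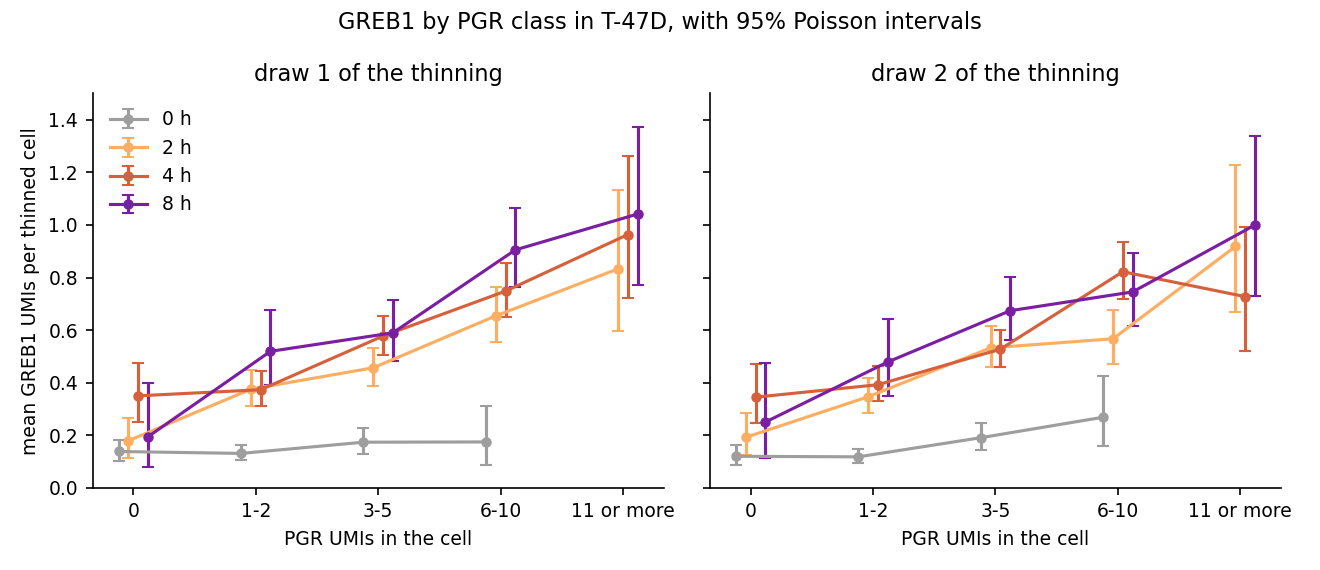
Mean GREB1 UMIs per thinned T-47D cell, with 95% Poisson intervals, in classes of cells by their PGR UMIs, at 0, 2, 4 and 8 h. In the first thinning the mean climbs with the PGR class at 2, 4 and 8 h, from 0.194 to 1.04 at 8 h. The 0 h points of that thinning lie between 0.131 and 0.175 in the 4 classes with most cells. In the second thinning the 0 h class with 6 to 10 PGR UMIs is at 0.269, and the last 2 classes at 4 h are at 0.822 and 0.727.

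Joint detection tells how far the genes shared cells. At 8 h, 48.0% of PGR-positive T-47D cells had a GREB1 UMI (43.5 to 52.6), against 13.9% of PGR-negative cells (4.67 to 29.5). At 2 h the shares were 35.4% (32.4 to 38.6) and 11.9% (6.98 to 18.7), and at 4 h 38.7% (35.8 to 41.6) and 27.5% (19.7 to 36.4), where the intervals overlapped. At 0 h they were 13.5% and 12.9%. GREB1 without PGR was seen in 44 vehicle cells and, at the E2 times in order, in 16, 33 and 5, where the single shares with no relation give 45.5, 43.6, 45.1 and 16.4. Cells with both made up 10.1% at 0 h and 44.7% at 8 h, where the product of the single shares gives 9.96% and 42.5%. Observed over expected cells with both came to 1.01 (0.847 to 1.20) at 0 h, 1.09 (0.976 to 1.21) at 2 h, 1.03 (0.934 to 1.13) at 4 h and 1.05 (0.921 to 1.20) at 8 h. Every interval held 1. After E2 nearly all cells were PGR-positive, so this ratio had little room above 1 whatever the relation. It therefore cannot decide how far the genes shared cells at those times.

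In Ishikawa too few cells held both transcripts to read a relation. With all UMIs, 2, 0, 4 and 15 cells at 0, 2, 4 and 8 h had both, where the product of the single shares gives 0.289, 2.92, 2.73 and 8.56 cells. Spearman's rho of thinned UMIs was 0.094, -0.026, 0.0055 and 0.088 over 676, 1305, 835 and 1336 cells, and a second thinning gave 0.141, -0.030, 0.056 and 0.036. The sign at 0 h also turned, to -0.010, in cells below the median mitochondrial share.

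Several states of the T-47D cells went with the level of both genes. Cells with an ESR1 UMI had more of both than cells without, with 5.84 against 4.67 PGR UMIs and 0.919 (0.790 to 1.06) against 0.543 (0.466 to 0.630) GREB1 UMIs per thinned cell at 8 h. Both differences were there at 0 h as well, at 2.11 against 1.72 for PGR. For GREB1 the 0 h means were 0.197 (0.155 to 0.248) against 0.127 (0.105 to 0.151). The share of cells with an ESR1 UMI was 28.2%, 29.3%, 33.6% and 38.0% at 0, 2, 4 and 8 h. In cells with no ESR1 UMI, rho of PGR and GREB1 at 8 h was 0.225. Such cells may still express ESR1, so this value cannot tell how far the relation goes with ESR1.

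Strongly dividing cells had less PGR. Cells with at least 5 UMIs of TOP2A and MKI67 together, which mark division, held 0.98 PGR UMIs against 1.90 in the other cells at 0 h, 1.87 against 4.06 at 2 h, 2.49 against 4.22 at 4 h and 3.38 (2.92 to 3.89, 58 cells) against 5.33 (5.12 to 5.55, 461 cells) at 8 h. GREB1 at 8 h was 0.534 (0.363 to 0.759) in dividing cells and 0.705 (0.630 to 0.786) in the others, with overlapping intervals. At 4 h it was 0.370 (0.256 to 0.516) against 0.569 (0.526 to 0.614), with no overlap, and at 0 and 2 h the intervals overlapped. The limit of 5 UMIs was chosen after seeing the data. Split by any UMI of TOP2A or MKI67 against none, PGR at 8 h was 5.06 against 5.14, and at 0 h 1.78 against 1.84, with overlapping intervals. At 2 h it was 3.45 (3.23 to 3.67) against 4.04 (3.90 to 4.18). At 4 h it was 3.75 (3.56 to 3.96) against 4.23 (4.09 to 4.37).

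The mitochondrial share of a cell, a common sign of RNA quality, moved with both genes in T-47D. Cells from the median share upward had more PGR at every time, 2.08 against 1.57 at 0 h and 5.94 against 4.29 at 8 h. GREB1 was 0.835 (0.727 to 0.953) against 0.537 (0.451 to 0.634) at 8 h and 0.150 against 0.143 at 0 h. Spearman's rho of the pair at 8 h was 0.267 in cells below the median share and 0.163 in cells from it. Cells from the median depth upward had more PGR than shallower ones at 4 h even after thinning, 4.32 (4.16 to 4.49) against 3.85 (3.70 to 4.01), while the intervals overlapped for PGR at 0, 2 and 8 h and for GREB1 at all 4 times. The part of RNA quality in the joint rise was not tested. In Ishikawa at 8 h, 4.79% of cells with at least 1% GFP UMIs and 4.07% of the others had a PGR UMI, and 3.99% and 4.07% had a GREB1 UMI. At 0 h, 7 of the 8 PGR UMIs of thinned cells came from the 281 cells with at least 1% GFP, and the log2 fold of PGR at 8 h was 2.05 in the cells under 1%, against 1.58 in all.

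Other genes that estrogen is known to raise moved with the pair. Of 30 listed genes, 23 had a mean of at least 10 CPM in T-47D, and 16, 17 and 18 of them passed 1.5-fold upward at 2, 4 and 8 h with none downward. Their median log2 fold was 1.10, 0.92 and 1.09, while the median of all genes stayed within 0.01 of 0. At 8 h, 9 of the 23 rose more than PGR and 4 rose more than GREB1. CXCL12, a chemokine, led the list at 8 h with a log2 fold of 3.1, TFF1, the trefoil peptide widely used as an estrogen marker, reached 1.71, 1.86 and 2.51, and TFF3 was lowest with 0.37. The list was drawn up with earlier results of these data known.

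In Ishikawa, 15 listed genes reached the mean of 10 CPM and 6, 5 and 5 passed upward at 2, 4 and 8 h, none downward. Of all 7885 such Ishikawa genes, 0.786%, 0.634% and 0.812% passed upward at 2, 4 and 8 h and 0.659%, 0.621% and 0.469% downward. The median log2 fold of the list was 0.34, 0.35 and 0.49. TGFA, a ligand of the EGF receptor, was highest at 8 h with 1.84 and CTSD, a lysosomal protease, lowest with -0.07. TFF1 had 2, 3, 0 and 0 UMIs in Ishikawa.

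Across T-47D cells, how far PGR and GREB1 went with the list after E2 depended on the score used. The mean z score of the 23 genes, a measure added after seeing the data, gave rho with PGR of -0.035, 0.284, 0.197 and 0.288 at 0, 2, 4 and 8 h and with GREB1 of 0.065, 0.169, 0.157 and 0.192. From the lowest to the highest of 4 equal groups of cells by this score at 8 h, mean PGR went from 3.82 to 6.61 UMIs and GREB1 from 0.462 to 0.845. The summed UMIs of the list were the score planned before, and the very abundant KRT19 dominates them. They gave rho with PGR of -0.111, 0.074, 0.010 and 0.077 at 0, 2, 4 and 8 h. With GREB1 it was 0.0046, 0.083, 0.023 and 0.020. From the lowest to the highest group by this sum at 8 h, mean PGR went from 4.29 to 4.90 UMIs and GREB1 from 0.608 to 0.597. Gene by gene, 22, 20 and 20 of the 23 had a positive rho with PGR at 2, 4 and 8 h and 14 at 0 h. With GREB1 it was 21, 21 and 20, and 18 at 0 h, so most were positive before E2 too. Over all genes the median rho with PGR was 0.0046, 0.0069, 0.0094 and 0.0071 at 0, 2, 4 and 8 h. Positive values were thus the more common ones there as well.

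The receptors and partners through which E2 acts had smaller folds than the pair in T-47D. ESR1 went from 25.8 to 39.3 CPM in T-47D, a log2 fold of 0.17, 0.34 and 0.59, and was the 1 of 4 measured steroid receptors past the rule, at 8 h only. NR3C1, the glucocorticoid receptor, was lowest there with -0.29. In Ishikawa none of 3 passed, with ESR1 at -0.02, -0.37 and -0.32 (44.5 to 35.5 CPM) and ESRRA at 0.53.

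Of 16 pioneer factors and coregulators in T-47D, 2, 0 and 1 passed upward at 2, 4 and 8 h and none downward. The highest at 8 h was NRIP1, a corepressor that estrogen itself raises, with 0.70, and the lowest TFAP2A with -0.36.

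Of the genes that serve the progesterone receptor or answer to it, 1 passed the rule. Among 8 chaperones of steroid receptors, FKBP4, the immunophilin that the progesterone receptor needs to bind hormone, was the only one past 1.5-fold in T-47D, with a log2 fold of 0.70, 1.00 and 1.24, and HSPA8 was lowest with 0.05. In Ishikawa none of the 8 passed, from FKBP4 at 0.46 to HSP90AA1 at 0.06. The membrane progesterone receptors that could be measured, PGRMC1 and PGRMC2, stood at -0.15 and -0.27 in T-47D and -0.02 and -0.12 in Ishikawa. No progestin was given, and of the genes progestins raise, 2 could be measured in T-47D, FKBP5 at 0.31 and ELF5 at -0.20, and 3 in Ishikawa, from FKBP5 at 0.24 to SGK1 at -0.11, none past the rule.

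None of the chromosomal neighbours that reached 10 CPM passed the rule. Of the 8 genes listed around PGR, 7 were analysed and 2 reached 10 CPM in each line. At 8 h these were YAP1 at -0.14 and CEP126 at -0.21 in T-47D and YAP1 at 0.17 and ARHGAP42 at -0.41 in Ishikawa, against 1.45 and 1.58 for PGR. ARHGAP42 lies 35.7 kb from PGR. Of the 10 around GREB1, 4 were measured in T-47D and 3 in Ishikawa and none passed 1.5-fold. They ran at 8 h from SLC66A3 at -0.21 to E2F6 at 0.05 in T-47D and from ROCK2 at 0.05 to E2F6 at 0.45 in Ishikawa, and E2F6 lies 16.7 kb from GREB1. KCNF1, a potassium channel gene 569 kb from GREB1 that was under the minimum and is named after its values were seen, had 58, 175, 168 and 117 UMIs in T-47D and 48, 302, 175 and 230 in Ishikawa. Its ratio of levels at 8 h was 5.18 in T-47D (3.75 to 7.22) and 2.37 in Ishikawa (1.73 to 3.30). GREB1L, the paralog of GREB1, had 45, 30, 63 and 29 UMIs in T-47D and 35, 78, 78 and 107 in Ishikawa, so its level was too low for the rule.

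Some genes followed PGR or GREB1 more closely than the rest. By rho across the 519 T-47D cells at 8 h, among 7439 genes, PGR was closest to PRLR, the prolactin receptor, at 0.415, then TRPS1 at 0.364, MT-ND6 at 0.346, FMN1 at 0.343 and TFRC, the transferrin receptor, at 0.336. PRLR had gone with PGR before E2 too, with rho of 0.264, 0.355 and 0.383 at 0, 2 and 4 h, although its own level changed by only 0.11, 0.15 and 0.39 (log2). FMN1 went with PGR more weakly at 0 h (0.105), and its level rose by 1.74, 2.20 and 2.28. GREB1 was closest to PGR (0.240), PRLR (0.221), SLC9A3R1 (0.220), TFRC (0.217) and ESR1 (0.217).

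By the shape of the response, measured as the Euclidean distance of the 3 log2 folds in T-47D, PGR was nearest to KDM4B (0.140), SLC9A3R1 (0.146), PXK (0.168), IGFBP4 (0.196) and KRT15 (0.211). GREB1 was nearest to STC2 (0.184), AMZ1 (0.286), MYBL1 (0.287), C5AR2 (0.319) and AREG (0.379). SLC9A3R1, a scaffold protein of the cell membrane, was thus among the nearest genes to PGR in fold and to GREB1 across cells. The 3 folds share the 0 h pool, and the 2 measures rest on 1 library.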

How the data were processed

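Cells of Ishikawa and T-47D, 1 culture per line and time, were profiled by droplet RNA sequencing in 2 gene expression libraries, with 2 MULTI-seq libraries that mark the time point. The deposited values are raw UMI counts per gene and barcode, which the authors made with Cell Ranger 3.1.0 on hg38 (submitters' processing notes), and the authors' table assigns barcodes to times. Barcodes called to 1 time were kept within the study's limits. In Ishikawa UMIs ran from 8500 to 35000 and genes from 2700 to 6000, with mitochondrial UMIs under 7%, and in T-47D UMIs from 7500 to 40000 and genes from 1500 to 6000, with mitochondrial UMIs under 20%. All 4626 called T-47D barcodes lay within these limits. Barcodes called as doublets by their tags were left out. Pairs of cells from the same time keep 1 tag and were not removed, and no further caller was run.

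UMIs were summed per line and time and divided by the pool total (CPM). Fold changes used a pseudocount of 1 CPM, and the fold rule asked for 1.5-fold and a mean, over the 4 times, of 10 CPM or more. Ratios of levels and their intervals are without the pseudocount. Intervals of 95% are exact Poisson (CPM), Clopper-Pearson (shares) and conditional binomial (ratios), and those of ratios of folds are approximate on the log scale. Cells were thinned to the 10th percentile of UMIs of each line's kept cells. Noise was the residual of a generalised additive model, fitted over all genes past the minimum. The genes named were PGR, GREB1, ESR1, TFF1 and GREB1L, in each list the members with the highest and the lowest fold at 8 h, and in T-47D the 5 genes nearest to each member by either measure of likeness. The Ishikawa result for the partners of the estrogen receptor is not reported here. Members and lists were chosen with earlier results of these data known. Other scalings, limits, pseudocounts and thinnings were tried. Python 3.11.15, numpy 2.4.6, scipy 1.17.1, pandas 2.3.3, R 4.3.3, mgcv 1.9.3 and edgeR 4.0.16 (scaling factors only) were used, and the scripts were tested on simulated counts.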

Additional observations from a re-analysis of the deposited data

Results flagged for a closer look

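Barcodes that the authors called to no time point and that held under 2000 UMIs were outside every comparison, and 3 levels in them were above the level of the 0 h cells of the same line. PGR stood at 215 CPM in such T-47D barcodes (199 to 233), against 129.5 CPM at 0 h. GREB1 stood at 29.7 CPM in them (23.9 to 36.5), against 10.4 CPM at 0 h. GREB1 stood at 7.53 CPM in the Ishikawa ones (1.55 to 22.0), against 1.18 CPM at 0 h, and that value rests on 3 UMIs. In uncalled barcodes from 2000 to under 8000 UMIs, whose median mitochondrial share was 33.5% in T-47D and 17.0% in Ishikawa, PGR was at 285 and 6.28 CPM and GREB1 at 62.2 and 6.51 CPM. The sources of these transcripts were not tested.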

How the results depend on the processing

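No paired analysis was possible because each line and time point was 1 culture and no test was run. PGR kept its value within the counting interval in 61 of 63 other settings and GREB1 in 60 of 63, and no fold changed direction. The exceptions were a pseudocount of 5 CPM, which gave 0.72 for PGR in Ishikawa at 8 h and 1.25, 1.48 and 1.76 for GREB1 in T-47D at 2, 4 and 8 h, and a lower upper limit on UMIs, which gave 1.06 for PGR in T-47D at 2 h. All 4626 called T-47D barcodes were kept, so the setting with every called barcode repeated the main T-47D values and could not move. The 61 and 60 include that setting. Low counts set the precision in Ishikawa, where 14 PGR and 18 GREB1 UMIs stand behind 0 h.

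Without thinning, shares moved beyond their interval to 4.05%, 5.16% and 7.85% for PGR and 4.86%, 5.94% and 7.44% for GREB1 in Ishikawa at 2, 4 and 8 h, and to 81.7%, 91.5%, 94.1% and 95.7% for PGR and 18.9%, 43.4%, 48.2% and 56.1% for GREB1 in T-47D at 0, 2, 4 and 8 h. The second thinning gave 0.740% for GREB1 in Ishikawa at 0 h. The correlation kept its value in 67 of 80 settings. In T-47D it moved without thinning to 0.138, 0.291, 0.310 and 0.379 at 0, 2, 4 and 8 h, with UMIs per 10000 to 0.106 at 0 h and 0.264 at 4 h, with the second thinning to 0.094 at 0 h, and in cells from the median mitochondrial share to 0.137 at 4 h. In Ishikawa at 0 h it turned to -0.010 in cells below the median mitochondrial share and moved to 0.169 from it, 0.184 in cells with no TOP2A or MKI67 UMI and 0.190 in cells with no ESR1 UMI, and at 4 h to 0.074 with no TOP2A or MKI67 UMI. These restrictions by mitochondrial share and ESR1 were chosen after seeing the data, and the cause was not tested.

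Counts of genes past the fold rule moved with its own terms. At 2-fold, 16, 16 and 20 Ishikawa genes were higher and 7, 1 and 4 lower at 2, 4 and 8 h, and 39, 39 and 61 T-47D genes higher and 2, 2 and 10 lower. With no minimum, 196, 186 and 212 Ishikawa genes were higher and 183, 248 and 179 lower, and 204, 219 and 413 T-47D genes higher and 76, 87 and 200 lower. With the median of ratios as the scale, 32 Ishikawa genes were lower at 4 h, against 49.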
